A study of Homo sapiens with 76 samples.

Results

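NEFM encodes the medium neurofilament chain, and its mRNA was spread very unevenly over the cells of an HEK293 culture. HEK293 is an established human embryonic kidney line, and the 76 cells profiled were untreated and belonged to 1 line. Each was captured in its own chamber, its polyadenylated RNA was copied from oligo-dT, and the 5′ ends were counted with unique molecular identifiers (UMIs), short random sequences that mark each original molecule before amplification. The labels give no compared group, so the groups here were chosen by the NEFM count itself. The NEFM-high cells are the 19 cells with the largest NEFM share of gene UMIs, and the NEFM-zero cells are all 27 cells with 0 NEFM UMIs. Together they make 46 of the 76 cells. The other 30 cells, with at least 1 NEFM UMI but outside the highest 19, are called middle cells. The labels name no separate cultures, so all cells count as 1 sample, and the differences below are descriptions with no test. Values after ± are SDs over cells, and 95% intervals cover counting error only.

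Neurofilaments are the intermediate filaments of neurons and fill the axon, where they set its calibre. They assemble from light, medium and heavy chains together with alpha-internexin or peripherin, and the light chain, encoded by NEFL, is the core that the others need to form a filament. NEFL and NEFM lie side by side on chromosome 8. Although HEK293 came from a kidney culture, the line is known to express some neuronal genes, neurofilament genes among them.

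NEFM gave 209 UMIs in all, and 163 of them (78.0%) were in the NEFM-high cells. Since these values chose the cells, they are given only to show what the groups are. The NEFM-high cells held between 1.64 and 17.1 NEFM UMIs per 10000 gene UMIs, with a median of 2.24 (4.17 ± 3.87, n = 19 cells). The middle cells held between 0.230 and 1.497, with a median of 0.649 (0.661 ± 0.322, n = 30). The NEFM-zero cells held 0 by definition. Within the NEFM-high group the level was uneven too, since 3 cells with 42, 27 and 11 NEFM UMIs held 80 UMIs, or 49.1% of the group's total. At the edge of the group, the last cell inside had 1.64 NEFM UMIs per 10000 from 3 UMIs, and the first cell outside had 1.497 from 2 UMIs. The lower part of the group therefore rests on 2 to 4 UMIs per cell.

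**Figure D1:**
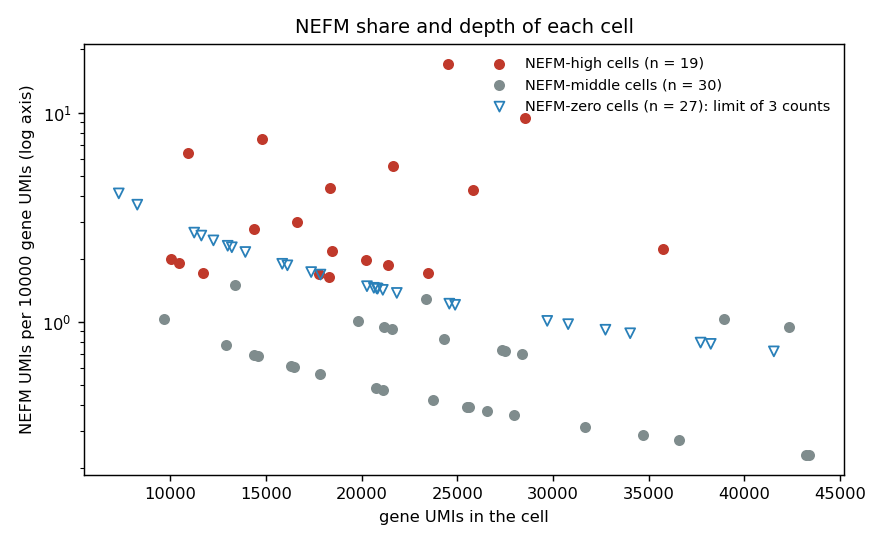
NEFM UMIs per 10000 gene UMIs (log axis) against the gene UMIs of each cell. Filled points are the 19 NEFM-high and 30 middle cells, and open triangles show, for the 27 NEFM-zero cells, the level that 3 UMIs would give, which runs from 0.722 to 4.11; the triangles overlap the lower NEFM-high points.

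A count of 0 does not place a cell below the NEFM-high cells when the cell is shallow. For the NEFM-zero cells, 3 UMIs would correspond to a level of 0.722 to 4.11 per 10000, and in 15 of the 27 this limit lay under the lowest NEFM-high level of 1.64. When each cell was thinned to 7305 UMIs, the total of the shallowest cell, NEFM was seen in 17 of 19 NEFM-high cells and in 13 of 30 middle cells.

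NEFL, the light chain, was the only other neurofilament subunit with more than a few UMIs, and it was found more often where NEFM was high. It gave 50 UMIs in 26 cells. A NEFL UMI was present in 10 of 19 NEFM-high cells (52.6%, exact Clopper-Pearson 95% interval 28.9% to 75.6%), in 11 of 30 middle cells (36.7%, 19.9% to 56.1%) and in 5 of 27 NEFM-zero cells (18.5%, 6.3% to 38.1%). At equal depth it was seen in 6 of 19 NEFM-high (31.6%), 5 of 30 middle (16.7%) and 2 of 27 NEFM-zero cells (7.41%). Per 10000 gene UMIs, NEFL ran from 0 to 1.83 in NEFM-high cells with a median of 0.426 (0.517 ± 0.595). In NEFM-zero cells it ran from 0 to 2.17 with a median of 0 (0.208 ± 0.541). The groups overlap over nearly the whole range, and the highest NEFL level of all was in a NEFM-zero cell.

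**Figure D2:**
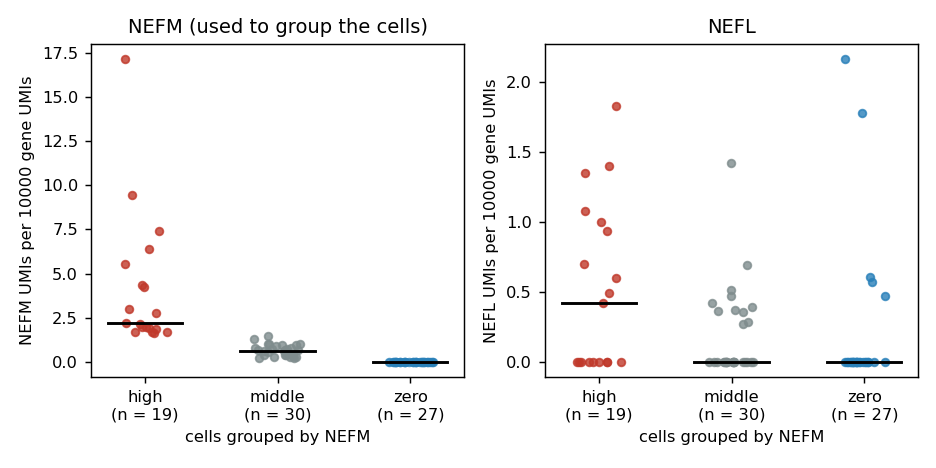
NEFM (left) and NEFL (right) UMIs per 10000 gene UMIs in each cell, by NEFM group. Points are cells and black lines are medians; the NEFL median is 0.426 in NEFM-high cells and 0 in middle and NEFM-zero cells, while single cells reach 1.83 in the NEFM-high group and 2.17 in the NEFM-zero group.

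The mean NEFL share in NEFM-high cells was 2.49 times that in NEFM-zero cells at full depth. At equal depth the ratio was 6.39, but from 9 UMIs against 2 (95% interval 1.32 to 60.8), and a second random draw gave 3.32. One NEFM-zero cell held 9 of that group's 15 NEFL UMIs, and without it the full-depth ratio was 3.91. The cell with the most NEFM, at 17.1 per 10000, had 0 NEFL UMIs. Both transcripts were seen in 21 cells. Over all 76 cells the 2 shares had a Spearman rho of 0.236 and a Pearson r of 0.175, or 0.322 without the cell of highest NEFM. Both shares are taken from the same cell totals and rest on few UMIs, so these coefficients are a description only.

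Other subunits were close to absent. INA, the alpha-internexin gene, had 1 UMI in NEFM-high, 1 in middle and 0 in NEFM-zero cells. PRPH, the peripherin gene, had 0, 3 and 0 UMIs in NEFM-high, middle and NEFM-zero cells. NEFH, the heavy chain gene, had no row under that name among the 17513 gene rows, so its level is not known here.

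The groups overlapped in depth and RNA content, with NEFM-high cells lower on some measures. Gene UMIs are also the divisor of the NEFM share that chose these cells, so this is partly set by the rule. A cell with 2 NEFM UMIs among 10011 gene UMIs was NEFM-high, while a cell with 4 among 42334 was a middle cell. The values below are therefore not read as a trait of NEFM-high cells. A NEFM-high cell had a median of 18340 gene UMIs (10011 to 35732), a middle cell 24007.5 (9668 to 43392) and a NEFM-zero cell 20635 (7305 to 41539). The spike-in RNA of each chamber gave median totals of 2174, 2264 and 2166 UMIs in NEFM-high, middle and NEFM-zero cells. Gene UMIs per spike-in UMI had medians of 8.38, 10.5 and 8.64 in the same order. Their means were 8.59 ± 2.04, 10.9 ± 3.68 and 9.66 ± 3.82, and their highest values 11.4, 21.2 and 18.1. At equal depth, the median number of genes seen was 2261 in NEFM-high, 2216 in middle and 2292 in NEFM-zero cells. No doublet caller was run, so the part of doublets was not tested.

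Among the genes abundant enough to be ranked, most differences between the groups were under 2-fold. Of 17513 gene rows, 995 had at least 50 thinned UMIs over both groups. Of these 995 genes, 14 (1.41%) were at least 2-fold higher in NEFM-high cells and 12 (1.21%) were at least 2-fold lower. The median ratio, NEFM-high over NEFM-zero, was 1.00, with its 5th and 95th percentiles over genes at 0.634 and 1.55. For 0 of the 995 genes did the full-depth shares of the groups fail to overlap. Using every UMI in place of 1 random draw, 0 genes were 2-fold higher and 4 were 2-fold lower: KIAA0101, MT-TP, MT-TS2 and HDDC2. All 14 higher genes still had a full-depth ratio above 1 (1.25 to 1.93), and all 12 lower genes one below 1 (0.446 to 0.759). In 12 of the 14 and in 12 of the 12, the mean of the middle cells lay between those of NEFM-high and NEFM-zero cells. These genes were picked as extremes of those 2 groups, so other cells are apt to fall between them. The share over all ranked genes was not counted, so no trend with NEFM is read from this. Both random draws passed the 2-fold threshold for 6 of the higher and 2 of the lower genes. Full depth and the draws use the same cells, so they bear only on the thinning. Without the single cell of highest NEFM, 8 of 975 ranked genes were higher and 16 lower.

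**Figure D3:**
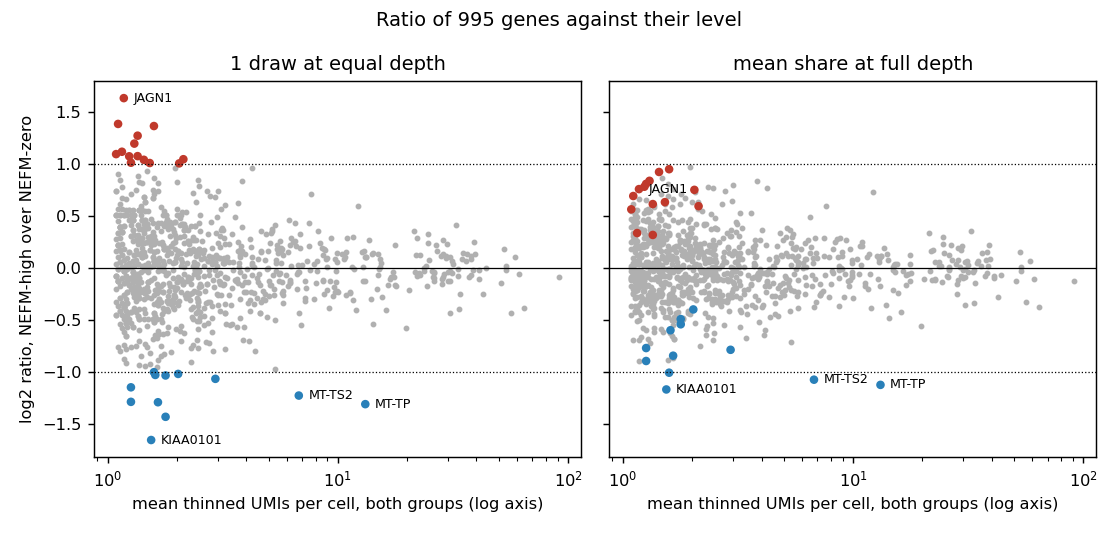
Log2 ratio of NEFM-high over NEFM-zero cells for 995 genes against their mean thinned UMIs per cell (log axis), in 1 draw at equal depth (left) and as the ratio of mean shares at full depth (right). Red and blue points mark the 14 higher and 12 lower genes of the left panel, and dotted lines are 2-fold; on the right 0 genes are past the upper line and 4 past the lower, with MT-TP and MT-TS2 well above the other genes of low ratio in level.

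RNA of the mitochondrial genome was lower in NEFM-high cells, and its tRNA genes had the lowest ratio of any gene list. Since polyadenylated RNA was copied from oligo-dT, UMIs at these genes need not come from mature tRNAs. Which RNAs they mark was not tested, and the handling of strands is not given. The mitochondrial genome encodes 13 respiratory chain proteins, 2 rRNAs and 22 tRNAs, transcribed as long precursors that are cut at the tRNAs. The 2 tRNA genes that were 2-fold lower are shown with the anticodon in capitals, at the only place in each sequence where those letters follow a T. The sequences are from GENCODE 29 on build GRCh38, while the counts were made on hg19. MT-TP is the proline tRNA, at chrM:15956-16023 on the minus strand, and MT-TS2 is the serine tRNA that reads AGC and AGU codons, at chrM:12207-12265 on the plus strand.
MT-TP: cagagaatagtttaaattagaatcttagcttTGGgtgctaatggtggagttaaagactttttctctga
MT-TS2: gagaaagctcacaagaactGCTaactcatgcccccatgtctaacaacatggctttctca

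MT-TP ranged from 0.387 to 46.9 UMIs per 10000 in NEFM-high cells with a median of 4.27 (10.7 ± 13.4). It ranged from 0 to 58.4 in middle cells with a median of 18.7 (18.4 ± 14.3), and from 1.63 to 82.4 in NEFM-zero cells with a median of 15.7 (23.3 ± 21.2). The groups overlap, and the SD within each is about as large as its mean. The ratio of NEFM-high to NEFM-zero cells was 0.404 at equal depth (0.331 to 0.491) and 0.460 at full depth. Leaving out each cell in turn kept the full-depth ratio between 0.373 and 0.509.

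MT-TS2 ranged from 0 to 23.1 UMIs per 10000 in NEFM-high cells with a median of 2.82 (5.49 ± 5.94). Its range was 0 to 30.9 in middle cells with a median of 5.27 (6.81 ± 6.99), and 0.631 to 47.8 in NEFM-zero cells with a median of 9.003 (11.5 ± 10.9). The ratio was 0.428 at equal depth (0.324 to 0.559) and 0.476 at full depth. As with MT-TP, the highest cells of each group overlap the others, and low values are more common among NEFM-high cells.

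All 22 mitochondrial tRNA genes together took a median of 0.160% of gene UMIs in NEFM-high cells, 0.323% in middle cells and 0.344% in NEFM-zero cells. Their summed ratio was 0.467 at equal depth (0.411 to 0.529) and 0.498 at full depth. Most UMIs of this list came from the 2 genes above, so the sum largely repeats them. At full depth MT-TP and MT-TS2 gave 433 and 197 of its 934 UMIs in NEFM-high cells. In NEFM-zero cells they gave 1455 and 709 of 3073. Of 3 tRNA genes abundant enough to be ranked, 3 were below 1 and 2 were 2-fold lower, against 1.21% of all ranked genes. The other ranked tRNA gene, MT-TF, had ratios of 0.614 at equal depth and 0.640 at full depth. In the second draw MT-TP was at 0.450 and MT-TS2 at 0.542, which no longer passed 2-fold. The 13 mitochondrial mRNAs differed less but in the same direction. They took a median of 2.62% of gene UMIs in NEFM-high cells (1.53% to 6.94%), 3.43% in middle cells (1.24% to 8.68%) and 3.81% in NEFM-zero cells (1.52% to 7.52%). Their summed ratio was 0.797 (0.767 to 0.828) at equal depth and 0.802 at full depth.

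None of the 13 mitochondrial mRNAs was 2-fold lower, but all 13 had a ratio below 1. These mRNAs come from 1 genome and shared precursors, so they are not 13 separate observations. MT-ATP8, an ATP synthase subunit, averaged 51.6 ± 25.4 UMIs per 10000 in NEFM-high cells and 62.6 ± 19.8 in NEFM-zero cells. MT-CO2, a cytochrome oxidase subunit, averaged 39.3 ± 19.1 in NEFM-high and 49.5 ± 19.4 in NEFM-zero cells. MT-CYB, the cytochrome b of complex III, averaged 36.7 ± 20.6 in NEFM-high and 46.9 ± 18.98 in NEFM-zero cells. MT-ND4, a complex I subunit, averaged 34.1 ± 17.8 in NEFM-high and 40.7 ± 18.2 in NEFM-zero cells. In each of the 4 the difference is smaller than the SD over cells. The 2 mitochondrial rRNAs had a ratio of 0.863 (0.823 to 0.906) at equal depth and 0.854 at full depth.

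**Figure D4:**
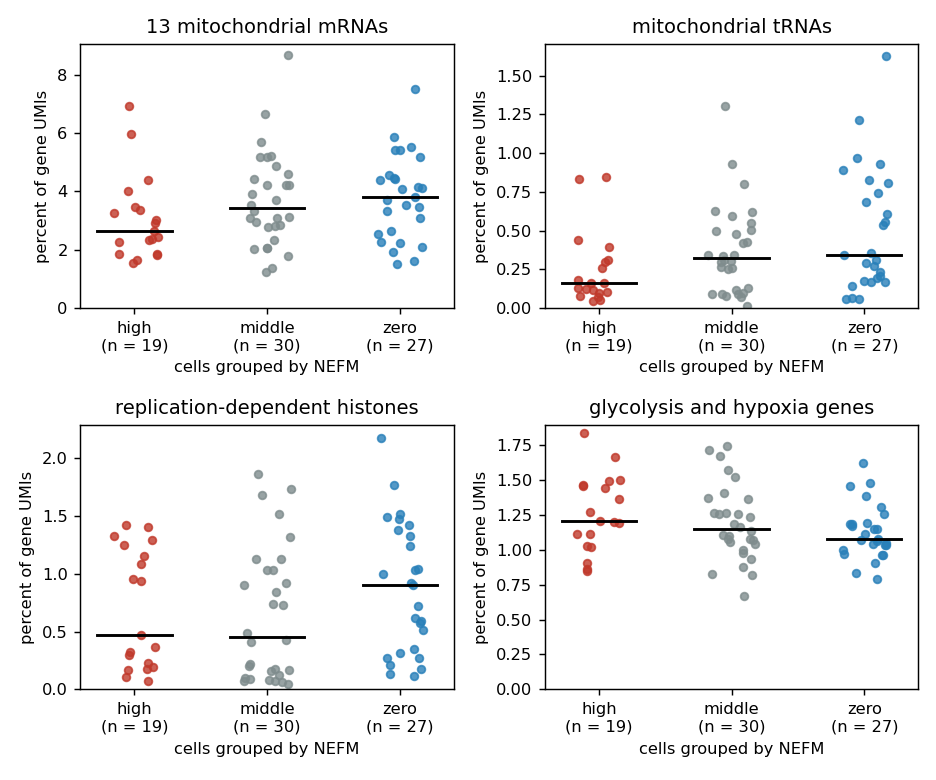
Percent of gene UMIs from the 13 mitochondrial mRNAs, the mitochondrial tRNAs, the replication-dependent histone genes, and the glycolysis and hypoxia genes in each cell, by NEFM group. Points are cells and black lines are medians; the mitochondrial tRNA median is 0.160% in NEFM-high and 0.344% in NEFM-zero cells, and the groups overlap in every panel.

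Among the 995 ranked genes, KIAA0101 had the lowest ratio. It encodes PCLAF, a protein that binds the replication clamp PCNA. It ranged from 0 to 5.54 UMIs per 10000 in NEFM-high cells with a median of 1.28 (1.503 ± 1.56), from 0 to 8.98 in middle cells with a median of 1.80 (2.62 ± 2.13), and from 0 to 6.91 in NEFM-zero cells with a median of 3.25 (3.37 ± 1.68). A UMI was seen in 14 of 19 NEFM-high, 29 of 30 middle and 26 of 27 NEFM-zero cells. The ratio was 0.319 at equal depth (0.160 to 0.588) and 0.446 at full depth, and the second draw gave 0.625. HDDC2, which encodes an HD domain protein, averaged 1.37 ± 0.95 in NEFM-high, 2.53 ± 1.19 in middle and 2.76 ± 1.24 UMIs per 10000 in NEFM-zero cells, with ratios of 0.500 at equal depth and 0.498 at full depth.

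The other genes of low ratio came closer to 1 at full depth. TMEM50A, a membrane protein gene, had ratios of 0.411 at equal depth and 0.539 at full depth. LINC00493, named as a long non-coding RNA, had 0.409 and 0.558. LAMTOR5, part of the Ragulator complex on lysosomes, had 0.452 and 0.587. COX6A1, a nuclear subunit of cytochrome oxidase, had 0.478 and 0.580. Its mean was 2.73 ± 2.09 UMIs per 10000 in NEFM-high and 4.70 ± 1.89 in NEFM-zero cells. GPX4, the peroxidase that reduces lipid hydroperoxides, had 0.510 and 0.613, with 5.26 ± 3.34 UMIs per 10000 in NEFM-high and 8.57 ± 3.57 in NEFM-zero cells. MZT1, of the gamma-tubulin ring complex, and CENPW, of the inner kinetochore, had full-depth ratios of 0.661 and 0.687. SNHG6, a host gene of small nucleolar RNA, had 0.372 at equal depth but 0.712 at full depth. UBE2L3, a ubiquitin-conjugating enzyme, DDT, a tautomerase, and NUSAP1, a spindle protein, ended at 0.759, 0.830 and 0.844 at full depth. DDT was at 1.42 in the second draw, on the other side of 1, and NUSAP1 reached 1.01 with thinning to 10011 UMIs.

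The genes of highest ratio showed smaller differences, and for each of the 14 that passed 2-fold the full-depth ratio was below 2. JAGN1, an endoplasmic reticulum protein of the secretory pathway, had the highest ratio of the ranked genes at equal depth, 3.09 (1.70 to 5.86), and 1.69 at full depth. It ranged from 0 to 6.12 UMIs per 10000 in NEFM-high cells with a median of 1.92 (2.33 ± 1.63), and from 0 to 4.07 in NEFM-zero cells with a median of 1.51 (1.38 ± 0.854). The middle cells averaged 1.71 ± 1.12, between the other groups, whose ranges overlap. NDUFA8, a nuclear subunit of complex I, had 2.05 and 1.89, with 2.55 ± 1.93 in NEFM-high and 1.35 ± 1.07 UMIs per 10000 in NEFM-zero cells. VTRNA1-3, a vault RNA, had 1.94 and 1.95, but its SD in NEFM-high cells was larger than its mean (3.75 ± 4.04, against 1.92 ± 1.92 in NEFM-zero cells).

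The other higher genes have varied roles. STUB1, a chaperone-linked ubiquitin ligase, had ratios of 2.61 at equal depth and 1.61 at full depth. PSMC5, an ATPase of the proteasome cap, had 2.01 and 1.55. HNRNPF, a splicing regulator, had 2.29 and 1.78, and EIF4G1, the scaffold of the cap-binding complex, 2.13 and 1.48. OLA1, an ATPase of the Obg family, had 2.41 and 1.53. LYAR, a nucleolar protein, had 2.01 and 1.75, and FAM96B, of cytosolic iron-sulphur assembly, 2.00 and 1.68. NT5C3B, a cytosolic nucleotidase, had 2.10 and 1.25. RPS2P55 had 2.06 and 1.51, but its name marks it as a pseudogene of RPS2, so its reads may be shared with other copies.

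**Figure D5:**
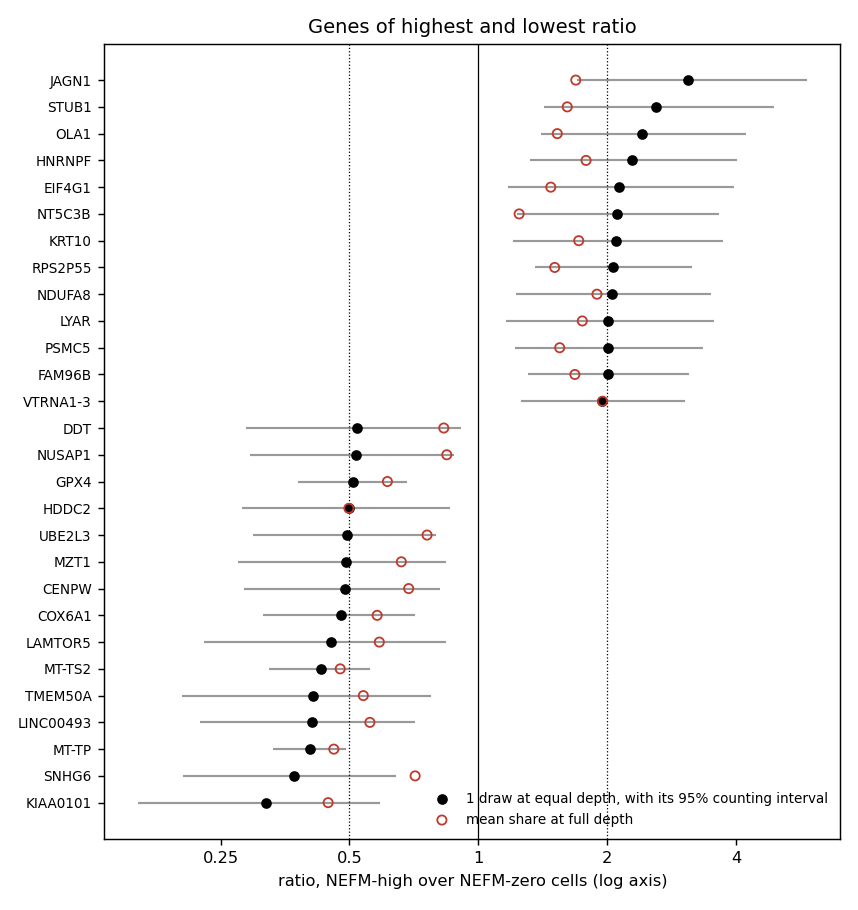
Ratio of NEFM-high over NEFM-zero cells (log axis) for 13 of the 15 genes of highest ratio and the 15 of lowest ratio at equal depth. Black points with bars are the draw at equal depth with its 95% counting interval, open circles are the ratio of mean shares at full depth, and dotted lines are 2-fold; most open circles lie nearer to 1, with MT-TP, MT-TS2, HDDC2 and KIAA0101 past the lower line. The intervals take no account of these genes having been picked as the extremes of 995.

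Ranked by how many cells showed a UMI at equal depth, JAGN1 (17 of 19 NEFM-high and 12 of 27 NEFM-zero cells) and EIF4G1 (17 of 19 and 12 of 27) came first among genes seen more often in NEFM-high cells. RP11-120I21.2, a locus with a clone name and no role given here, was seen in 10 of 19 NEFM-high and 3 of 27 NEFM-zero cells. With every UMI it was seen in 13 of 19 and 12 of 27, with 48 against 16 UMIs. RNASET2, an RNase of the lysosome, was seen in 10 of 19 and 3 of 27, and NDUFA5, a complex I subunit, in 14 of 19 and 9 of 27. Among genes seen less often in NEFM-high cells, IST1, an ESCRT-III protein, was seen in 1 of 19 NEFM-high and 14 of 27 NEFM-zero cells. At full depth IST1 was seen in 5 of 19 and 21 of 27. PRPS1, which makes phosphoribosyl pyrophosphate, was seen in 2 of 19 and 15 of 27, and SRP72, of the signal recognition particle, in 2 of 19 and 15 of 27. KIAA0101 (8 of 19 and 24 of 27) and MZT1 (8 of 19 and 24 of 27) were also among the lowest. With every UMI many of these differences were small or gone. JAGN1 was then seen in 18 of 19 NEFM-high and 25 of 27 NEFM-zero cells, MZT1 in 18 of 19 and 26 of 27, and RNASET2 in 12 of 19 and 14 of 27. EIF4G1 was seen in 18 of 19 and 16 of 27, NDUFA5 in 18 of 19 and 18 of 27, PRPS1 in 11 of 19 and 23 of 27, and SRP72 in 12 of 19 and 20 of 27.

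The neuronal gene lists had summed ratios near or under 1, and each interval included 1. Genes of the neuronal microtubule and growth cone list had a summed ratio of 0.961 at equal depth (0.781 to 1.18) and 0.990 at full depth, from 18 of 24 listed genes with a row in the table. TUBA1A, an alpha-tubulin, had ratios of 1.95 and 1.69, with 1.65 ± 1.70 UMIs per 10000 in NEFM-high and 0.976 ± 1.07 in NEFM-zero cells. STMN1, the microtubule-destabilising stathmin, had 0.676 and 0.696, with 4.21 ± 1.72 in NEFM-high and 6.05 ± 3.49 UMIs per 10000 in NEFM-zero cells. Tubulins have near-identical copies, so reads can be split between them. Axonal transport motor genes had a summed ratio of 0.913 (0.752 to 1.11), secretory and synaptic genes 0.835 (0.541 to 1.27) and neuronal transcription and RNA factors 0.985 (0.678 to 1.42). Only 6 genes of these 4 lists were abundant enough to be ranked, and 0 of them passed 2-fold; with 1.41% of all ranked genes higher and 1.21% lower, that count does not set them apart. UCHL1, a deubiquitinase abundant in neurons, was seen in 17 of 19 NEFM-high, 28 of 30 middle and 25 of 27 NEFM-zero cells, with ratios of 0.740 and 0.838.

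Of the repressors of neuronal genes, 16 genes had a summed ratio of 0.933 (0.787 to 1.10), and 3 of 5 ranked members were above 1 and 2 below. HDAC2, a histone deacetylase of repressor complexes, had 1.91 at equal depth and 1.81 at full depth, with 2.95 ± 1.91 UMIs per 10000 in NEFM-high and 1.62 ± 1.15 in NEFM-zero cells. PTBP1, which represses neuronal splicing, had 0.643 and 0.724. Genes that phosphorylate, degrade or bind neurofilaments or their mRNA had a summed ratio of 0.698 (0.427 to 1.12) from 28 UMIs in NEFM-high and 57 in NEFM-zero cells. Their full-depth ratio was 0.887. Genes near NEFM on 8p21 had 0.773 (0.504 to 1.17) at equal depth and 0.916 at full depth. A second random draw put both of these lists on the other side of 1, at 1.17 and 1.09. Other intermediate filament genes had 1.36 (1.00 to 1.84) at equal depth and 1.12 at full depth. Among them KRT10, a keratin, was seen at full depth in 19 of 19 NEFM-high, 28 of 30 middle and 21 of 27 NEFM-zero cells, with ratios of 2.10 and 1.72. KRT10 was also among the 15 genes of highest ratio, and it gave 34 of the list's 87 thinned UMIs in NEFM-high cells. In NEFM-zero cells it gave 23 of 91. VIM, the vimentin gene, had ratios of 1.30 and 0.953, and KRT18, another keratin, 1.25 and 0.946. LMNB2, a lamin gene, went the other way, with 0 thinned UMIs in NEFM-high and 12 in NEFM-zero cells and a full-depth ratio of 0.486.

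Marker lists of other cell types gave few UMIs in any group, and many listed genes had no row. Rows were found for 4 of 18 adrenal and chromaffin, 8 of 22 kidney epithelial and 3 of 13 glial genes. The UMIs given here are sums over 19 NEFM-high, 30 middle and 27 NEFM-zero cells. At equal depth, adrenal and chromaffin genes gave 8 UMIs in NEFM-high, 5 in middle and 7 in NEFM-zero cells, and kidney epithelial genes 9, 5 and 7. Glial genes gave 4, 5 and 9, fibroblast and muscle genes 2, 3 and 5, blood and immune genes 0, 4 and 0, and liver genes 0, 0 and 0. On the adrenal list, the transcription factor GATA2 had 18 UMIs in NEFM-high, 19 in middle and 19 in NEFM-zero cells at full depth. Its ratio was 0.711 at equal depth and 1.34 at full depth. GATA3, of the same family, had 10 UMIs in NEFM-high, 11 in middle and 3 in NEFM-zero cells. From these few UMIs its ratios were 5.68 and 6.14.

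The cell cycle lists had summed ratios below 1 at both depths, though not every measure or member went that way. The 34 S phase genes had a summed ratio of 0.875 (0.791 to 0.967) at equal depth and 0.946 at full depth. Their median share, however, was 0.508% of gene UMIs in NEFM-high and 0.477% in NEFM-zero cells. Of 12 ranked members 5 had a ratio above 1 and 7 below. The G2 and M phase genes had 0.811 (0.725 to 0.907) at equal depth and 0.868 at full depth, with 4 of 13 ranked members above 1 and 9 below. None of the ranked members of either list passed 2-fold, where 1.41% of all ranked genes were higher and 1.21% lower. The replication-dependent histone list had 0.737 (0.679 to 0.799) and 0.798, and 96.6% of its UMIs came from 1 gene, HIST1H4C, which encodes histone H4. HIST1H4C ran from 6.12 to 139 UMIs per 10000 in NEFM-high cells with a median of 44.8 (67.4 ± 51.3). It ran from 4.64 to 180 in middle cells with a median of 43.6 (62.3 ± 56.04), and from 11.8 to 214 in NEFM-zero cells with a median of 86.2 (84.6 ± 56.1). The mean and median of the middle cells lay below those of both other groups. Among the most abundant S phase genes, PCNA, the replication clamp, had ratios of 0.535 at equal depth and 0.642 at full depth. RPA2, of the single-strand binding complex, had 0.619 and 0.807, and MCM7, of the replicative helicase, 0.655 and 0.929. GMNN, the licensing inhibitor geminin, had 1.22 and 1.24. The part of these lists in the difference of KIAA0101 was not tested.

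Glycolysis and hypoxia genes had a summed ratio of 1.14 (1.07 to 1.21) at equal depth and 1.12 at full depth. All 9 ranked members were above 1 on both scales, and 0 passed 2-fold, against 1.41% of all ranked genes. Per spike-in UMI the median of all ranked genes moved to 0.889 (-0.17 on the log2 scale), the list's ratio was 0.982 and 5 of the 9 members were above 1. Relative to that median the list's ratio was 1.10, with 8 of 9 members above it. Their median share was 1.21% of gene UMIs in NEFM-high, 1.15% in middle and 1.08% in NEFM-zero cells. GAPDH averaged 39.1 ± 9.19 UMIs per 10000 in NEFM-high and 37.1 ± 9.97 in NEFM-zero cells, a difference well within the SD. Ribosomal protein genes had a summed ratio of 1.02 (1.01 to 1.03), or 0.903 per spike-in UMI, with 41 of 81 ranked members above 1 and 40 below. Chaperone genes had 0.951 (0.884 to 1.02), amino acid and unfolded protein stress genes 1.07 (0.910 to 1.26), and immediate early genes 1.13 (0.902 to 1.42). Retinoic acid and HOX genes had 0.880 (0.621 to 1.24).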

How the data were processed

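The authors deposited whole-number UMI counts per gene and cell, not normalized, as 1 table for all cells. Tools were cutadapt 1.2.1 and STAR 2.4.0a, and the build hg19 (GRCh37), per the submitters' processing notes. For the UMI counter, annotation, strand handling and cell filter, nothing is given in the sources used here. A row called GENE (0.197% of the sum of all values) was left out, leaving 17513 gene rows and 80 spike-in rows. Cells held 7305 to 43392 gene UMIs, and 0 pairs of cells were identical. Each cell was thinned once to 7305 UMIs without replacement (NumPy 2.4.6), and sums were compared as ratios of group means with exact conditional intervals (SciPy 1.17.1). Full-depth values are mean shares per 10000 gene UMIs. Genes were ranked at 50 or more thinned UMIs over both groups. Named genes are the 15 highest and 15 lowest ratios, the 5 largest differences each way in cells with a UMI, the neurofilament subunits and the 4 most abundant members of each list. The members and the 24 lists were chosen with earlier results of these data known. Ribosomal protein genes, mitochondrial tRNAs and mitochondrial rRNAs were grouped by gene name. Of the ranked genes, 2 are not reported here.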

Additional observations from a re-analysis of the deposited data

How the results depend on the processing

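The number of genes past 2-fold depended on the setting more than any other result, and the cause was not tested beyond the number of genes and cells each setting leaves. Counts are given out of the genes ranked in each setting, which are not always the same genes. Against 14 higher of 995, there were 6 of 1306 with thinning to 10011 UMIs and 8 of 984 with a second random draw. There were 0 of 995 without thinning, per spike-in UMI and with totals that leave out the abundant classes. The 10 highest cells only gave 9 of 793, and leaving out the highest NEFM cell gave 8 of 975. A minimum of 20 UMIs gave 94 of 2299, a minimum of 100 gave 0 of 472 and no filter gave 1272 of 8096. Against 12 lower of 995, there were 4 without thinning, 7 per spike-in UMI and 4 without the abundant classes, each of 995. All other cells as the reference gave 35 lower of 1592. A minimum of 20 UMIs gave 109 of 2299, a minimum of 100 gave 3 of 472 and no filter gave 1020 of 8096. Chosen after seeing the data, middle cells in place of the NEFM-high cells gave 2 higher and 3 lower of 995. Deep NEFM-zero cells without thinning, also chosen then, gave 10 higher and 4 lower of 995. Counting cells with at least 2 NEFL UMIs at equal depth, the share was 10.5% of NEFM-high and 0% of NEFM-zero cells. The NEFL ratio ran from 1.75 to 8.10 over 12 alternatives. Over the same alternatives the mitochondrial mRNA ratio ran from 0.703 to 0.808, the mitochondrial tRNA ratio from 0.423 to 0.605, MT-TP from 0.340 to 0.550 and KIAA0101 from 0.279 to 0.625. The S phase list ran from 0.813 to 0.946, the G2 and M phase list from 0.673 to 0.942 and the histone list from 0.694 to 0.929. No paired analysis was possible because the labels give no groups and no replicate numbers shared between them. Genes of few UMIs per cell are limited by counting error.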

Other observations

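A few genes, most of them outside the rule for named genes, were picked after their values were seen, and all but the last rest on few UMIs at full depth. MAP1B, a microtubule-associated protein of growing axons, had 17 UMIs in the 19 NEFM-high, 22 in the 30 middle and 8 in the 27 NEFM-zero cells. DBN1, the actin-binding drebrin, had 13, 17 and 6 UMIs in NEFM-high, middle and NEFM-zero cells, and KRT8, a keratin, had 8, 17 and 4. Other neuronal genes went the other way. PCSK1N, a neuroendocrine secretory protein, had 2 UMIs in NEFM-high, 15 in middle and 19 in NEFM-zero cells. CPLX1, a synaptic complexin, had 0, 2 and 10, NCAM1, a neural adhesion molecule, 0, 5 and 7, and ENO2, the neuronal enolase, 0, 5 and 4. ALDOA, a glycolytic aldolase, had 429 UMIs in NEFM-high, 841 in middle and 481 in NEFM-zero cells, and a full-depth ratio of 1.40.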
